A study of Mus musculus with 12 samples.

Results

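The data described here are the baseline transcriptome of mouse acute myeloid leukaemia cells that received only the vehicle, DMSO. They are the 3 libraries labelled as DMSO-treated, out of 12 libraries in the series, and they were chosen by that label alone. The cells were primary leukaemia cells of genotype NRASG12V/Mll-AF9 on an (FVB/n X C57/BL/6J) F1 background, so every library carries both an activated RAS allele and an MLL fusion. They had been cultured in RPMI medium with 10% fetal bovine serum (FBS) and 1 ng/ml of the myeloid growth factor GM-CSF, and total RNA was taken after 24 h with DMSO. The labels do not name the promoters of the NRASG12V or fusion alleles, the number of animals or clones, or whether replicates 1, 2 and 3 were separate cultures, so the spread between libraries may be technical. The other 9 libraries were treated with inhibitors and were not used here. Values are FPKM, fragment counts scaled by transcript length and by library size, and how the libraries were scaled is not stated. The scaling by length allows levels of different genes to be set side by side.

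MLL-AF9 joins the DNA-binding part of the histone methyltransferase MLL to a subunit of transcription elongation complexes, and it is known for keeping HOXA cluster genes and Meis1 active in myeloid progenitors. NRAS with the G12V change stays bound to GTP and signals through the RAF, MEK and ERK kinases and through PI3 kinase. The normal myeloid path runs from a progenitor that makes azurophil (primary) granule enzymes to either neutrophils, which add later granule proteins, or monocytes and macrophages, which carry scavenger, Fc and chemokine receptors.

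Of the 23234 genes in the table, 10348 (44.5%) averaged 1 FPKM or more across the DMSO libraries and are called expressed below. A mean of at least 10 FPKM was reached by 5563 genes (23.9%) and a mean of at least 100 FPKM by 718 (3.09%). Counts of expressed genes in the lists below are to be read beside the 44.5% of all genes. The 100 most abundant genes of a library held 35.5% ± 0.685 of all its FPKM (SD, n = 3). The values of a library added up to between 487023 and 505374 FPKM, read counts were not given, and the sequencing depth behind a value is unknown. Across the 10348 expressed genes the Spearman correlation was 0.996 between replicates 2 and 3, against 0.979 between replicate 1 and either of them. Replicates 2 and 3 were not copies of each other, as no gene had the same value above 0 in both. Below, the values of a gene are given in the order replicate 1, 2 and 3, and means are given ± SD with n = 3.

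Iron storage, calprotectin and lysosomal transcripts led the ranking. Fth1, the heavy chain of the iron store ferritin, ranked first at 20209.7, 15265 and 15048 FPKM, and Ftl1, the light chain, ranked second at 12980, 10869.9 and 10721 FPKM. Replicate 1 was the highest for both, and replicates 2 and 3 lay close together. Both ferritin genes together made up 5.72% ± 0.732 of all FPKM. S100a9 and S100a8, the subunits of the neutrophil and monocyte protein calprotectin, followed. S100a9 had 7363, 7393 and 7303 FPKM and S100a8 7073, 7202 and 7266 FPKM. These were nearly level across libraries, with S100a8 at 0.977 ± 0.0173 of S100a9, and the pair made up 2.94% ± 0.0732 of all FPKM. Hmox1, the haem-degrading enzyme that frees iron, ranked 23 at 1985, 1374 and 1450.1 FPKM and was also highest in replicate 1.

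**Figure D1:**
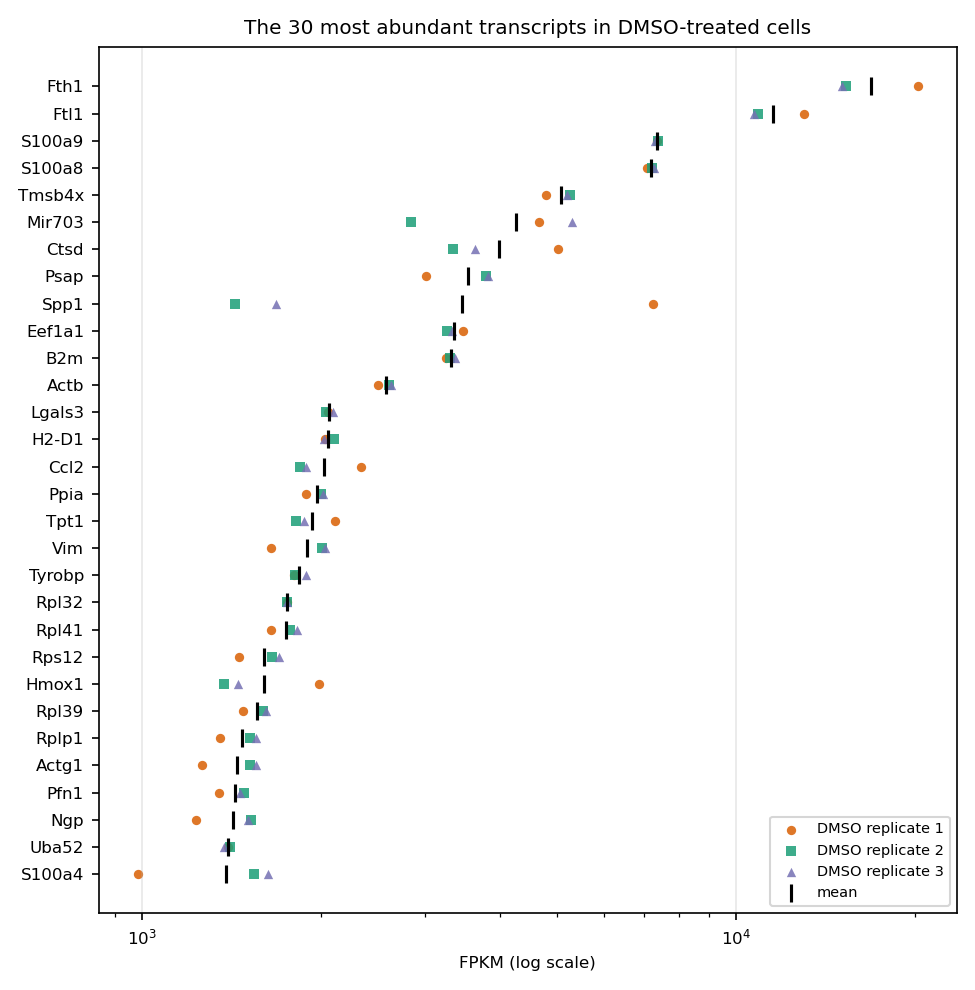
FPKM of the 30 genes with the highest mean in DMSO-treated cells, on a log axis. Each symbol is 1 of the 3 libraries and the black bar is their mean; Spp1 shows the widest spread, with replicate 1 at 7245 FPKM and replicates 2 and 3 at 1437 and 1679 FPKM, whereas S100a9, S100a8, B2m and Actb are nearly level.

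Among the rest of the 30 most abundant genes were 2 lysosomal proteins, the protease Ctsd at 5019, 3333 and 3630.3 FPKM and the saposin precursor Psap at 3004, 3797 and 3816 FPKM. Replicate 1 was the highest for Ctsd and the lowest for Psap. The matrix phosphoprotein osteopontin, Spp1, had 7245, 1437 and 1679 FPKM, so its rank was 4 in replicate 1 but 30 and 22 in replicates 2 and 3. The galactose-binding lectin Lgals3 (2063 ± 26.7 FPKM), the signalling adaptor Tyrobp (1835 ± 44.4), the monocyte chemoattractant Ccl2 (2025 ± 271) and the neutrophilic granule protein Ngp (1423 ± 165) were the other myeloid products in this top group. S100a4, a calcium-binding protein of motile cells, closed it at 984, 1547 and 1634 FPKM, lowest in replicate 1. Most of the remainder were genes that every cell uses, such as the actin-binding thymosin Tmsb4x at 4787, 5258 and 5189 FPKM and the translation factor Eef1a1 at 3466, 3267 and 3321 FPKM.

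The symbol Mir703 ranked 6 at 4662, 2832 and 5297 FPKM, and replicates 2 and 3, close for most genes, differed widely here. Its hairpin in RefSeq (GRCm38.p6, chr5:98475556-98475664, minus strand) is only 109 bases long, and it is shown because a value per kilobase over so short a stretch rests on few positions. Whether the reads came from this hairpin or from a like sequence elsewhere was not tested.
Mir703 hairpin: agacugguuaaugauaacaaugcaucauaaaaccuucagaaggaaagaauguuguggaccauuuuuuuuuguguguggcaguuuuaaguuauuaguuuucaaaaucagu

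Granule genes of both early and late neutrophil stages were expressed, and the later ones had the higher median over the 3 libraries. Of the 11 primary granule genes in the table, 10 (90.9%) were expressed, against 44.5% of all genes, with a median of 34.6 FPKM. The granule proteoglycan serglycin, Srgn, had 376, 181 and 189 FPKM and Ctsc, which activates the granule proteases, had 239, 321 and 329 FPKM. Srgn was highest and Ctsc lowest in replicate 1. The serine proteases followed with cathepsin G, Ctsg, at 77.8, 69.2 and 67.3 FPKM, proteinase 3, Prtn3, at 70.5, 66.8 and 58.7 FPKM and neutrophil elastase, Elane, at 44.2, 31.7 and 27.8 FPKM. Myeloperoxidase, Mpo, the classic azurophil granule enzyme, had only 22.2, 23.8 and 23.2 FPKM and ranked 3081, and Ctsg was 3.10 ± 0.344 times as high. The proteinase Prss57 was near the floor at 1.27, 1.84 and 1.45 FPKM. Lyz1, a lysozyme, had 154, 133 and 151 FPKM, while its near-identical neighbour Lyz2 was listed at 0 in all 3 libraries. An exact 0 in such a table can be a skipped estimate, so nothing is read from Lyz2, and the value of Lyz1 is uncertain because reads of the pair are hard to separate.

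All 25 later granule and maturation genes in the table were expressed, with a median of 68.5 FPKM, where 44.5% of all genes were. That median is the mean of Stfa2, at 161, 23.3 and 21.3 FPKM, so it leans on replicate 1. A list median without replicate 1 was not computed. Ngp had 1233, 1528 and 1509 FPKM, or 61.6 ± 5.30 times Mpo. The siderophore-binding lipocalin Lcn2 had 896, 631 and 621 FPKM and the cathelicidin Camp 548, 693 and 688 FPKM, the first highest and the second lowest in replicate 1. Lactoferrin, Ltf, had 161, 284 and 272 FPKM, the neutrophil collagenase Mmp8 196, 292 and 312 FPKM and haptoglobin, Hp, 334, 156 and 155 FPKM. Ltf and Mmp8 were lowest and Hp highest in replicate 1. Some other members of the list were lower. The chemokine receptor gene Cxcr2 had 22.1, 13.05 and 14.3 FPKM, the G-CSF receptor gene Csf3r 29.7, 32.6 and 34.7 FPKM and the leukolysin gene Mmp25 7.07, 7.86 and 7.86 FPKM.

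Upstream sequences of these genes were searched for motifs of PU.1 and C/EBP, transcription factors that act in granule gene expression and whose own genes are described further on. The table of RefSeq promoters (GRCm38.p6, 250 bases before to 50 after each start) held 9 of the 10 expressed primary granule genes and 21 of the 25 later ones. The letters GAGGAAGT, a form of the PU.1 motif, were searched on both strands. They stood in 4 of 10 promoters of primary granule genes and in 4 of 21 of later granule genes, against 3.20% of all 32851 promoters. The letters TTGCNNAA, bound by C/EBP factors, were searched on both strands too. They stood in 3 of 10 and in 9 of 21, against 10.8% of all promoters. Among promoters of the proliferation genes listed further on, 0 of 24 held the first motif and 2 of 24 the second. The counts were 0 of 36 and 5 of 36 for expressed cytokine genes, 1 of 31 and 3 of 31 for growth factor and cytokine receptor genes, and 2 of 35 and 4 of 35 for genes that every cell uses. The monocyte, chemokine and secreted protease sets had a promoter for only 75%, 73.7% and 75.9% of their genes. Their promoters held the first motif in 6 of 29, 1 of 17 and 4 of 25. The second stood in 5 of 29, 3 of 17 and 11 of 25. The first motif in the monocyte set and the second in the secreted protease set were thus about as frequent as in later granule genes. These shares describe letters in a window and show no binding. The promoters of the 4 primary granule genes with GAGGAAGT are printed so that the placing of the motifs can be read. Those of S100a8 and Ngp, abundant members of the later granule and maturation list picked after their matches were seen, are printed too. Capitals mark GAGGAAGT, TTGCNNAA and the TATA element TATAAA on either strand, which did not overlap each other.
Mpo promoter, GRCm38.p6 chr11:87793534-87793833, plus strand: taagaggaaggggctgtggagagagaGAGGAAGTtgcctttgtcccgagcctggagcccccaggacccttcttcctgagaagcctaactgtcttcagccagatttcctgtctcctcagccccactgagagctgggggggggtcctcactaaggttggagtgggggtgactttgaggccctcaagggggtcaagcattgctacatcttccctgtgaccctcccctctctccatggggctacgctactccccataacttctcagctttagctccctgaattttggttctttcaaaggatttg
Elane promoter, GRCm38.p6 chr10:79886062-79886361, plus strand: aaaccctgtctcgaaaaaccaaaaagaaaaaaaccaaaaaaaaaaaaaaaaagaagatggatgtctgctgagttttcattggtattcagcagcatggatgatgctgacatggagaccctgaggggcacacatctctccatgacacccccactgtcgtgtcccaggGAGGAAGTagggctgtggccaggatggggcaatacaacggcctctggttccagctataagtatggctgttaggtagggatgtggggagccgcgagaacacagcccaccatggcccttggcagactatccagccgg
Prtn3 promoter, GRCm38.p6 chr10:79879417-79879716, plus strand: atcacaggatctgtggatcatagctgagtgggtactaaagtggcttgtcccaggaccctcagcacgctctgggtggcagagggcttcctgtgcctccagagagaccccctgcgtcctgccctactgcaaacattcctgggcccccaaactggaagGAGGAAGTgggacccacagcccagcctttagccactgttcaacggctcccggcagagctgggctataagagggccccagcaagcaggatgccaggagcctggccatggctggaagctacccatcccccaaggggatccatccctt
Ctsc promoter, GRCm38.p6 chr7:88277835-88278134, plus strand: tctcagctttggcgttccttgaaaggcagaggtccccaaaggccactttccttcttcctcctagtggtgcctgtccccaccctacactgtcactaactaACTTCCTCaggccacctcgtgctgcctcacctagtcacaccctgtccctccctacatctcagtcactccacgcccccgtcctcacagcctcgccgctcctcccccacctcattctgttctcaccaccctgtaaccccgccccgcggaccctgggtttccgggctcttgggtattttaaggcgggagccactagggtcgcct
S100a8 promoter, GRCm38.p6 chr3:90668821-90669120, plus strand: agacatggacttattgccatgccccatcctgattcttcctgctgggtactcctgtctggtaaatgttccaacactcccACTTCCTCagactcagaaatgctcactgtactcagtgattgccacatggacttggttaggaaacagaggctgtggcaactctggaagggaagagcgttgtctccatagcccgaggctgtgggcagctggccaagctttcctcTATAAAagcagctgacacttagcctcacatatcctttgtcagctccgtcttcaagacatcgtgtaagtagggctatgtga
Ngp promoter, GRCm38.p6 chr9:110419558-110419857, plus strand: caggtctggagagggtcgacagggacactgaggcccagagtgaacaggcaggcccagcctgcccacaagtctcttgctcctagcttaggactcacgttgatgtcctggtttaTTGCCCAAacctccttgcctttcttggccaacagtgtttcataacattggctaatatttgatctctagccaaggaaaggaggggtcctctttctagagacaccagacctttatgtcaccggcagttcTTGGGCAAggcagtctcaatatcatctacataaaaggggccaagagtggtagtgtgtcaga
In Mpo, Elane and Prtn3 the letters GAGGAAGT began 224, 85 and 95 bases before the start on the coding strand. In Ctsc and S100a8 the reverse complement began 151 and 172 bases before it. S100a8 also held TATAAA beginning 30 bases before the start, and Ngp held TTGCNNAA at 138 bases before it and the reverse complement at 11.

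Monocyte and macrophage markers were abundant beside the granule genes. Of 36 in the table, 32 (88.9%) were expressed, against 44.5% of all genes, and 18 had at least 100 FPKM, against 3.09% of all genes. The median of the list was 93.3 FPKM. Tyrobp and Fcer1g, adaptors that carry signals of Fc and lectin receptors, were nearly level. Tyrobp had 1807, 1813 and 1886 FPKM and Fcer1g 1041, 1046 and 1075 FPKM. The surface antigen gene of inflammatory monocytes, Ly6c2, had 969, 1466 and 1388 FPKM, lowest in replicate 1, and its near-identical relative Ly6c1 had 34.2, 45.1 and 44.0 FPKM. The integrin subunit gene Itgam, which encodes CD11b, had 335, 331 and 343 FPKM and was level across libraries. The M-CSF receptor gene Csf1r had 144, 155 and 158 FPKM and Emr1, which encodes the macrophage antigen F4/80, had 143, 107 and 110.4 FPKM. The lysosomal markers Cd68 (654 ± 68.6 FPKM) and Mpeg1 (553 ± 57.1), the protease Ctss (1057 ± 242) and the glycoprotein Gpnmb (798 ± 239) were high. The endotoxin co-receptor gene Cd14 had 254, 122 and 134 FPKM and the lectin gene Clec4e 222, 103 and 106 FPKM, both highest in replicate 1.

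The 4 members of this list under 1 FPKM on average were Cd163, Marco, Timd4 and Vsig4, genes of resident tissue macrophages. They are named for their low level, and other macrophage genes of the list, such as Emr1, were well above 1 FPKM. The haemoglobin scavenger receptor gene Cd163 had 0.273, 0.336 and 0.408 FPKM, the collagenous receptor gene Marco 1.16, 0.264 and 0.164 FPKM and the apoptotic cell receptor gene Timd4 0.611, 0.239 and 0.297 FPKM. Vsig4, a complement receptor gene, was listed at 0. The efferocytosis kinase gene Mertk had 5.08, 5.30 and 5.32 FPKM and the fractalkine receptor gene Cx3cr1 10.1, 6.54 and 7.02 FPKM. The 6 genes of the phagocyte oxidase, a list chosen after values were seen, were all above 100 FPKM. Cyba, its small membrane subunit, had 1279.5, 1299.8 and 1351 FPKM, Cybb, the catalytic subunit, 198, 203 and 225 FPKM and the cytosolic subunit gene Ncf1 177, 181 and 182 FPKM. The values of Cyba, Cybb and Ncf1 were close in all libraries.

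**Figure D2:**
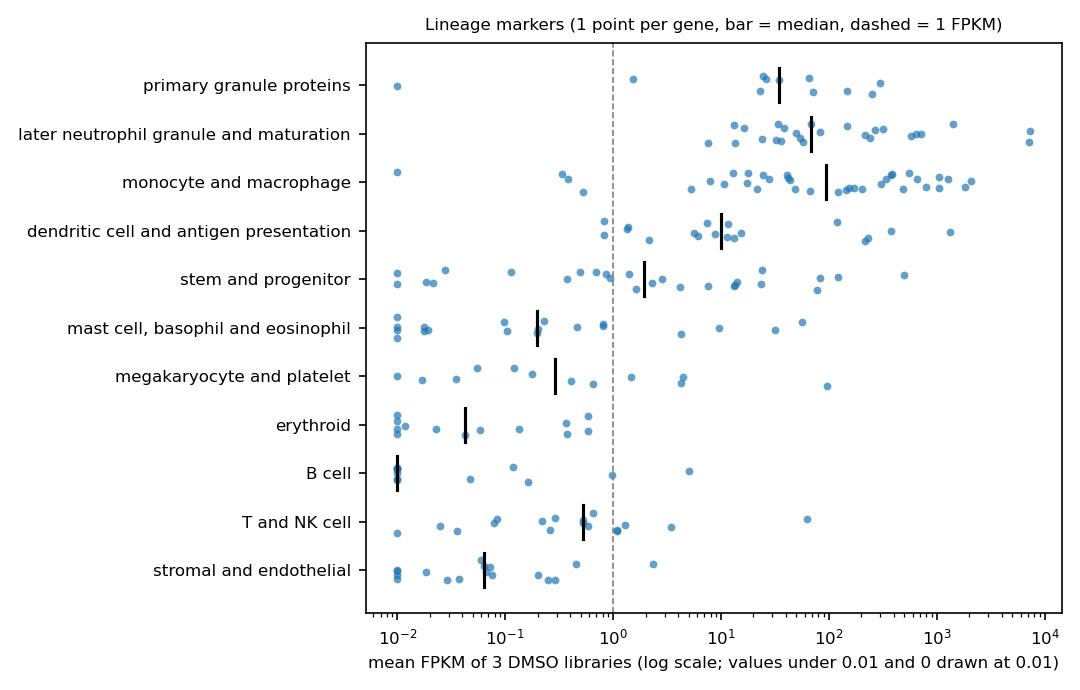
Mean FPKM of the 3 DMSO libraries (log axis) for every member of 11 lineage marker lists; each point is 1 gene, the bar is the list median and the dashed line is 1 FPKM. The granule and the monocyte lists have medians of 34.6 to 93.3 FPKM, whereas the erythroid, stromal and B cell lists lie almost wholly under 1 FPKM.

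Of 18 dendritic cell and antigen presentation genes 16 were expressed, against 44.5% of all genes. The median was 10.0 FPKM, and class II genes were among the highest. Cd74, the class II invariant chain, had 1132, 1458 and 1397 FPKM, and the class II chain genes H2-Ab1, H2-Aa and H2-Eb1 had 232 ± 10.5, 218 ± 11.4 and 118 ± 3.73 FPKM. Bst2, a membrane protein gene of plasmacytoid dendritic cells and of interferon responses, had 488, 333 and 319 FPKM. The class II transactivator gene Ciita had 6.83, 7.13 and 8.09 FPKM. The costimulatory genes Cd86 (11.2 ± 0.686 FPKM), Cd80 (8.81 ± 1.52) and Cd40 (13.2 ± 1.19) were near 10 FPKM. Of the genes of conventional dendritic cells, Zbtb46 had 2.28, 2.18 and 1.95 FPKM, Clec9a 0.562, 0.885 and 1.03 FPKM and the chemokine receptor gene Xcr1 0.988, 0.691 and 0.796 FPKM.

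Stem and progenitor genes were mixed. Of 26 in the table, 15 (57.7%) were expressed, which is not far from the 44.5% of all genes, and the median was 1.95 FPKM. Ly6a, which encodes the stem cell antigen Sca-1, was the highest at 451, 515 and 517 FPKM. The transcription partner Lmo2 had 122, 122 and 118 FPKM, the SLAM receptor gene Cd48 78.9, 82.9 and 87.7 FPKM and the progenitor antigen gene Cd93 73.2, 76.4 and 83.9 FPKM, all nearly level across libraries. Cd34, a progenitor sialomucin gene, had 34.5, 19.6 and 17.9 FPKM. The stem cell factor receptor gene Kit had only 2.27, 1.43 and 1.17 FPKM and Flt3, the receptor gene for the FLT3 ligand, 2.63, 1.96 and 2.25 FPKM. Csf1r exceeded Kit 63.6-fold, 108-fold and 135-fold in replicates 1, 2 and 3. Genes tied to long-term stem cells were near 0, with Mecom at 0.449, 0.496 and 0.522 FPKM, the SLAM receptor gene Slamf1 at 0.0231, 0.0211 and 0.0394 FPKM and Hlf at 0.0105, 0.00960 and 0.00898 FPKM.

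Defining genes of other blood lineages and of stroma were largely absent. Of 12 B cell genes 7 were listed at 0, including Pax5, Ebf1, Rag1 and Rag2, and 1 was expressed, the receptor chain gene Cd79b at 5.91, 4.55 and 4.64 FPKM. None of 13 erythroid genes was expressed, and the highest had a mean of 0.590 FPKM (Hbb-b2, whose reads may be shared with its copy Hbb-b1). Of 17 stromal and endothelial genes, 1 was expressed, the smooth muscle actin gene Acta2 at 3.05, 1.92 and 2.14 FPKM, and the collagen gene Col1a1 had 0.166, 0.280 and 0.164 FPKM. Among 12 megakaryocyte and platelet genes 4 (33.3%) were expressed, against 44.5% of all genes. The platelet chemokine gene Pf4, also made by macrophages, had 132, 81.0 and 76.6 FPKM, whereas the platelet receptor gene Gp9 had 0, 0.0850 and 0.0795 FPKM and Gp1ba 0.182, 0.249 and 0.0969 FPKM. For mast cells, basophils and eosinophils 4 of 19 (21.1%) were expressed, and for T and NK cells 5 of 17 (29.4%). Both lists differed between libraries and are described with the spread. In bulk RNA, few cells with much of a transcript and many cells with little of it cannot be told apart.

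Myeloid and inducible transcription factors were widely expressed. Of 47 in this mixed list, 46 were expressed, against 44.5% of all genes. Only the erythroid factor Gata1 was not (0, 0.0976 and 0.0304 FPKM). Sfpi1, which encodes PU.1, the master regulator of myeloid cells, led at 305, 298 and 286 FPKM and was level across libraries. Id2, an inhibitor of basic helix-loop-helix factors, had 161, 139 and 140.2 FPKM. The C/EBP factor genes formed a clear order, which held in all 3 libraries for Cebpb, Cebpa and Cebpe. Cebpb, prominent in macrophages, had 109.7, 104 and 109.7 FPKM, Cebpa, needed for the granulocyte and monocyte progenitor, 30.9, 46.2 and 45.7 FPKM, Cebpd 22.7, 21.9 and 29.4 FPKM and the late granulocyte factor Cebpe 17.7, 15.1 and 14.1 FPKM. Of the monocyte factors, Irf8 had 64.1, 79.9 and 77.9 FPKM, Irf5 73.5, 80.5 and 85.1 FPKM and Klf4 19.3, 17.4 and 13.7 FPKM. Gfi1, the granulocyte repressor, had 3.8, 3.46 and 3.62 FPKM.

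Only 4 genes averaging 10 FPKM or more differed at least 2-fold between replicates 2 and 3, and the immediate early genes Fos and Dusp1 were among them. The others were Rgs1, a brake on G protein signalling, at 39.0, 47.7 and 18.1 FPKM and the small nucleolar RNA Snord22. Fos had 28.9, 65.0 and 28.8 FPKM, Fosb 5.73, 7.45 and 0.891 FPKM and the phosphatase gene Dusp1 46.3, 51.2 and 11.9 FPKM. Replicate 2 was the highest for these 3 genes, and replicate 3 was the lowest for Fosb and Dusp1. Junb, by contrast, had 90.3, 70.9 and 71.8 FPKM and Egr1 18.1, 16.6 and 12.1 FPKM. Myc had 25.1, 19.5 and 23.0 FPKM and Myb, which blocks terminal myeloid maturation, 7.39, 8.01 and 7.54 FPKM.

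The expressed HOX genes all lay in the HOXA cluster, at low levels. Of 39 HOX genes 4 (10.3%) were expressed, against 44.5% of all genes, and 26 were listed at 0 in all 3 libraries. The highest were Hoxa5 at 4.59, 2.50 and 3.24 FPKM, Hoxa7 at 3.34, 3.14 and 3.38 FPKM and Hoxa9 at 2.00, 2.05 and 2.01 FPKM. Hoxa7 lay above Hoxa9 in each library, 1.63 ± 0.0846 times as high, and neither range overlapped the other. Hoxa5 ranged more widely and overlapped Hoxa7. Hoxa9, the HOX gene best known as a partner in leukaemia, ranked only 9449.

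Along the cluster the levels did not follow gene order. Hoxa6 had 0.911, 0.415 and 0.970 FPKM and Hoxa10 0.316, 0.427 and 0.674 FPKM, while Hoxa3, Hoxa2 and Hoxa4 had means of 0.470, 0.151 and 0.0673 FPKM and Hoxa11 and Hoxa13 were listed at 0. The 11 HOXA genes summed to 13.2, 10.4 and 11.97 FPKM in replicates 1, 2 and 3. The 10 HOXB genes summed to 0.558, 0.266 and 0.314 FPKM, nearly all of it Hoxb4 at 0.486, 0.266 and 0.228 FPKM. The HOXC genes were all listed at 0, and of the HOXD genes Hoxd13 alone had a value, 0.00715 FPKM on average.

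**Figure D3:**
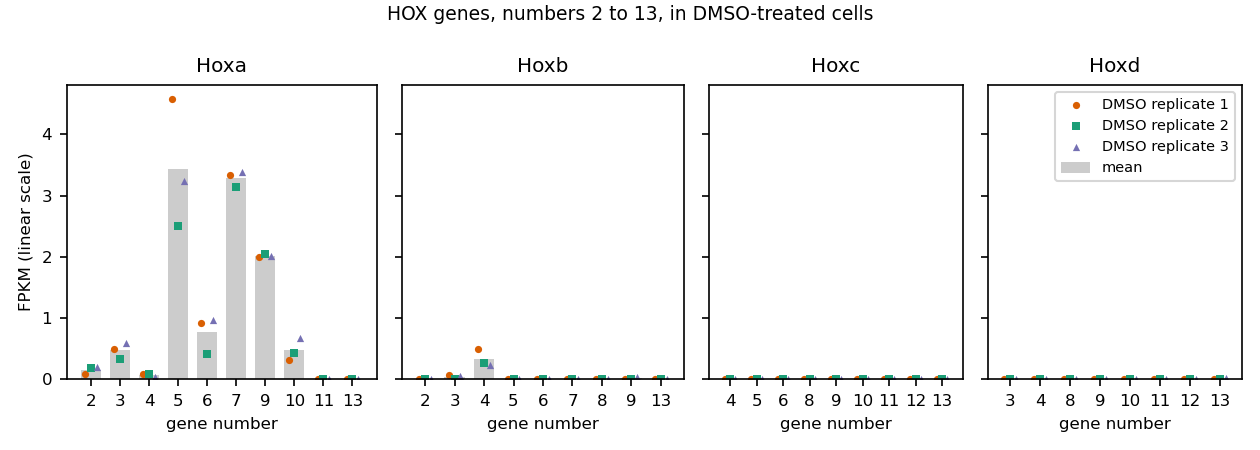
FPKM (linear axis) of HOX genes with numbers 2 to 13, by cluster and gene number; bars are means of the 3 DMSO libraries and symbols the single libraries. Values stand in the Hoxa panel, led by Hoxa5, Hoxa7 and Hoxa9, and the Hoxc and Hoxd panels are flat at 0 on this scale.

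Of the DNA-binding partners of HOX proteins, 3 of 9 were expressed, against 44.5% of all genes. Pbx2 had 14.2, 13.3 and 14.01 FPKM, Pknox1 7.92, 8.30 and 7.72 FPKM and Meis1, a target of MLL fusions, 3.76, 1.80 and 2.35 FPKM, highest in replicate 1. Pbx3, often coupled to Meis1, had 1.31, 0.549 and 0.424 FPKM and Meis2 was listed at 0. The fusion's own partner genes were low, with Mll1 (Kmt2a) at 2.05, 1.98 and 2.13 FPKM and Mllt3, which encodes AF9, at 1.98, 2.27 and 2.19 FPKM. A value per symbol does not tell the fusion transcript from the normal alleles. Their cofactors were higher. The elongation complex subunit gene Aff1 had 22.1, 18.2 and 20.4 FPKM, the histone methyltransferase gene Dot1l 13.1, 10.0 and 10.5 FPKM and the tethering protein gene Men1 11.1, 10.2 and 10.8 FPKM. Fusion targets included Mef2c at 10.6, 10.5 and 10.7 FPKM and the cell cycle kinase gene Cdk6 at 19.5, 9.09 and 9.51 FPKM, whereas Six4 had a mean of 0.0102 FPKM and Eya1 was listed at 0.

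All 24 genes of the RAS pathway and of its PI3 kinase and mTOR arms were expressed, against 44.5% of all genes. None had a mean of 100 FPKM. Nras had 28.4, 29.8 and 31.9 FPKM and Hras1 had 17.1, 18.7 and 19.9 FPKM. These values do not separate an Nras transgene or allele from the normal gene. Of the RAF kinases Araf had 30.03, 29.5 and 29.6 FPKM and Braf 4.14, 4.22 and 4.23 FPKM. The ERK kinase gene Mapk3 had 97.9 ± 7.86 FPKM, and the MEK genes Map2k1 and Map2k2 66.6 ± 9.75 and 52.9 ± 2.28 FPKM. Among catalytic PI3 kinase subunits the leukocyte forms led, with Pik3cd at 26.0, 29.7 and 30.7 FPKM and Pik3cg at 20.1, 17.0 and 17.7 FPKM, above Pik3cb at 18.8, 10.8 and 13.4 FPKM and Pik3ca at 7.47, 6.05 and 6.81 FPKM. The ranges of Pik3cg and Pik3cb overlapped. Mtor had 5.11, 5.26 and 4.96 FPKM and Nf1, the RAS brake neurofibromin, 2.24, 1.84 and 2.17 FPKM.

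Receptors for GM-CSF and M-CSF were the most abundant of the growth factor receptors. Of 43 receptor genes 34 (79.1%) were expressed, against 44.5% of all genes. Csf2ra, the GM-CSF receptor alpha chain, had 142, 162 and 150.1 FPKM and Csf2rb, the common beta chain, 143, 122 and 125 FPKM, and the ranges of the chains overlapped. Csf1r overlapped Csf2ra and lay above Csf2rb in every library. Csf2rb2, the near-identical beta chain used with IL-3, had 51.4, 34.4 and 34.9 FPKM and the IL-3 receptor alpha gene Il3ra 20.5, 14.3 and 15.3 FPKM. Csf1r was 4.72 ± 0.154 times Csf3r. The IL-7 receptor gene Il7r, better known in lymphocytes, had 60.5, 58.9 and 68.7 FPKM. Interferon gamma receptor genes Ifngr1 and Ifngr2 had 56.8 ± 0.771 and 64.7 ± 0.819 FPKM, and the TNF receptor genes Tnfrsf1a and Tnfrsf1b 64.5 ± 3.41 and 64.6 ± 7.69 FPKM. Il1r2, a decoy receptor for IL-1, had 56.5, 22.8 and 22.7 FPKM, highest in replicate 1, while the signalling receptor gene Il1r1 had 0.444, 0.655 and 0.617 FPKM. Epor, the erythropoietin receptor gene, was listed at 0.

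Of 36 receptor genes for chemoattractants and lipid mediators 26 (72.2%) were expressed, against 44.5% of all genes. The receptors for chemokines of the CC class were led by Ccr1 at 114, 125 and 124 FPKM, ahead of Ccr2, the receptor for Ccl2, at 27.6, 52.3 and 49.6 FPKM. The complement receptor genes C5ar1 and C3ar1 had 107 ± 22.2 and 106 ± 13.1 FPKM. The formyl peptide receptor gene Fpr2 had 84.4, 67.0 and 69.4 FPKM and Fpr1 60.0, 18.5 and 19.5 FPKM, both highest in replicate 1. The bone marrow homing receptor gene Cxcr4 had 36.2, 42.7 and 48.1 FPKM, whereas Cxcr7, another receptor of the same ligand, was listed at 0. Receptors of lymphocytes and eosinophils were low, with Ccr3 at 0.131, 0.0512 and 0.112 FPKM and Ccr4 at 0.0207, 0 and 0 FPKM.

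Among 20 pattern recognition genes 16 (80%) were expressed, against 44.5% of all genes. After Cd14 came Cd180 at 84.1, 117 and 125 FPKM, a relative of Tlr4, and its partner Ly86 at 57.1, 85.6 and 82.3 FPKM, both lowest in replicate 1. Of the Toll-like receptors, Tlr13, a sensor of bacterial ribosomal RNA in mice, was the highest at 62.7, 68.0 and 72.0 FPKM. Tlr2 followed at 60.0, 55.3 and 52.1 FPKM, and the ranges of both did not overlap. The endosomal receptor genes Tlr7, Tlr8 and Tlr9 had 27.5 ± 3.61, 13.2 ± 0.246 and 4.75 ± 1.20 FPKM, and the endotoxin receptor gene Tlr4 14.2, 15.9 and 16.7 FPKM. Tlr3, Tlr5, Tlr11 and Tlr12 were below 1 FPKM.

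Of 31 integrin and adhesion genes 21 (67.7%) were expressed, against 44.5% of all genes, and leukocyte genes led. Itgb2, the common beta chain of leukocyte integrins, had 444, 481 and 507 FPKM, 1.42 ± 0.0831 times its partner Itgam. The other partners were lower, at 18.2, 27.9 and 27.1 FPKM for Itgal and 18.4, 12.04 and 15.6 FPKM for Itgax. Selplg, a selectin ligand gene, had 115, 115 and 118 FPKM, level across libraries. Itgb7, the beta chain of gut homing integrins, had 51.9, 95.4 and 94.1 FPKM, lowest in replicate 1. The hyaluronan receptor gene Cd44 had 85.9, 87.5 and 91.1 FPKM. The endothelial genes Vcam1 and Sele had 0.154 and 0.0384 FPKM on average.

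Among the genes listed as secreted products, those of monocyte chemoattractants, cathepsins and osteopontin were among the most abundant. Ctsd and Ctsb encode lysosomal proteins, and RNA levels do not show whether a product was secreted. Of 35 chemokine genes 19 (54.3%) were expressed, not far from the 44.5% of all genes, and together the list made up 1.10% ± 0.120 of all FPKM. Ccl2 had 2337, 1846 and 1891 FPKM, 2.08 ± 0.0636 times Ccl7, a ligand of the same receptor, at 1150.4, 894 and 878 FPKM. Ccl6 had 725, 1029.8 and 1250.3 FPKM, lowest in replicate 1, and Ccl9, its relative in mice, 519, 355 and 377 FPKM. The macrophage inflammatory proteins Ccl3 and Ccl4 were close to each other, Ccl3 at 519, 274 and 257 FPKM and Ccl4 at 494, 289.8 and 273 FPKM. Ccl12 had 156, 69.5 and 62.6 FPKM, and these 3 genes were highest in replicate 1. Of the neutrophil attractants of the CXC class, Cxcl2 had 94.9, 19.9 and 11.3 FPKM and Cxcl3 19.7, 4.55 and 3.95 FPKM. Cxcl1 had 0.152, 0 and 0.130 FPKM and Cxcl5 0.139, 0.0635 and 0 FPKM. Cxcl12, the niche ligand of Cxcr4, had 0.0387, 0.101 and 0.0786 FPKM.

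Of 62 cytokine and growth factor genes 32 (51.6%) were expressed, close to the 44.5% of all genes. Progranulin, Grn, led at 838, 664 and 682 FPKM, followed by the macrophage migration inhibitory factor gene Mif at 409.5, 311 and 308 FPKM and Tgfb1 at 164, 134 and 135 FPKM. Tnf had 78.5, 34.9 and 63.0 FPKM and Il1b 29.2, 13.4 and 8.49 FPKM. The IL-1 receptor antagonist gene Il1rn had 126, 43.5 and 53.3 FPKM and lay above Il1b in each library. Csf1, the ligand of Csf1r, had 73.0, 16.1 and 16.7 FPKM, so its level in replicate 1 stood far above that in replicates 2 and 3. Several other growth factors with receptors in these cells were near 0. Csf2, the GM-CSF gene, had 0.0686, 0.188 and 0.0585 FPKM, Csf3 0.197, 0.0449 and 0.0420 FPKM, the Kit ligand gene Kitl 0.175, 0.150 and 0.206 FPKM and Il3 was listed at 0. Flt3l, the ligand of Flt3, had 6.47, 6.79 and 5.96 FPKM. The endogenous transcript of Csf2 was thus near 0 in cells grown with added GM-CSF. Il6 had 2.71, 0.999 and 1.10 FPKM, Il10 0.725, 0.425 and 0.530 FPKM and Il12b 0.820, 0.269 and 0.251 FPKM.

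**Figure D4:**
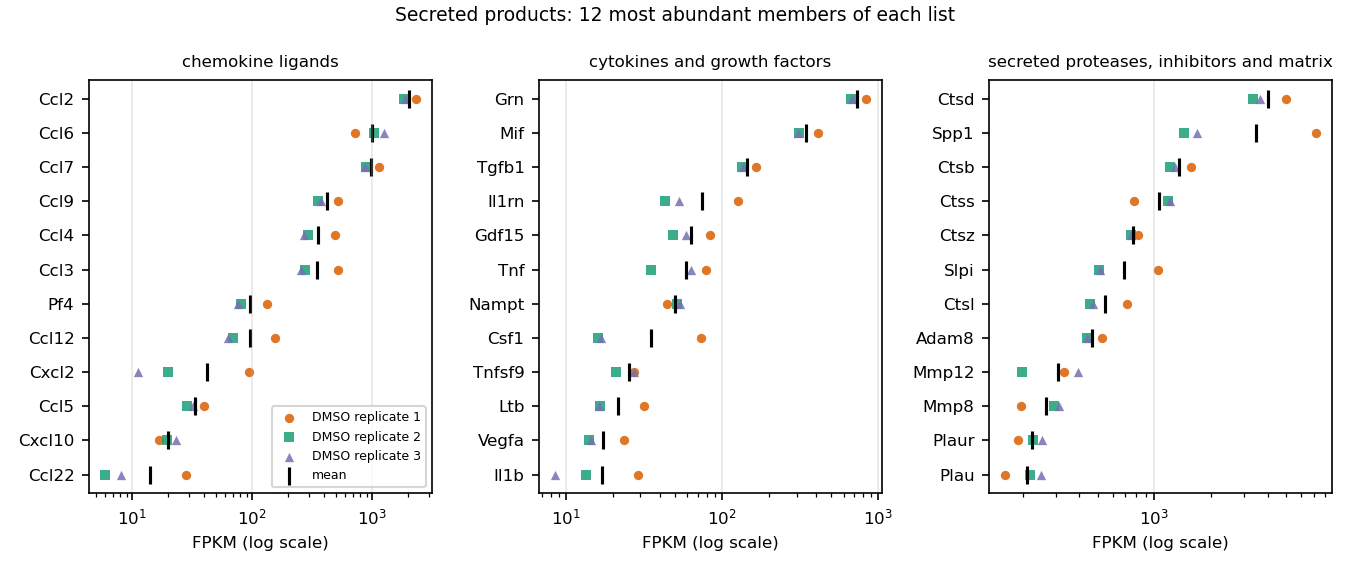
FPKM (log axes) of the 12 most abundant members of 3 lists of secreted products, with 1 symbol for each DMSO library and a bar for the mean. Ccl2, Ccl6 and Ccl7 lead the chemokines at 974 to 2025 FPKM on average, and Spp1, Csf1, Cxcl2 and Ccl22 show replicate 1 far to the right of the other libraries.

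Proteases, their inhibitors and matrix proteins had a larger summed level than the chemokines, the cytokines or the complement and lipid genes. That sum includes the lysosomal cathepsins. Of 39 genes 29 (74.4%) were expressed, against 44.5% of all genes. The list made up 3.801%, 2.23% and 2.40% of all FPKM in replicates 1, 2 and 3, the difference lying mainly in Spp1 and Ctsd. The lysosomal protease Ctsb had 1557, 1217 and 1280.2 FPKM, Ctsz 817, 750.2 and 750 FPKM and Ctsl 713, 454 and 472 FPKM, while the osteoclast protease gene Ctsk had 5.72, 3.91 and 4.95 FPKM. Slpi, an inhibitor of elastase and cathepsin G, had 1049.5, 507 and 514 FPKM, above each of those enzymes in every library. The metalloelastase gene Mmp12 had 331, 198 and 395 FPKM, Mmp9 70.6, 44.0 and 45.9 FPKM and the collagenase gene Mmp13 38.6, 20.3 and 24.5 FPKM. Their tissue inhibitor gene Timp2 had 10.6, 8.10 and 9.10 FPKM and Timp1 2.07, 0.831 and 1.48 FPKM. The urokinase gene Plau had 161, 218 and 252 FPKM and its receptor gene Plaur 188, 227 and 254 FPKM, lowest in replicate 1 for both, whereas the inhibitor gene Serpinb2 had 18.9 ± 11.3 FPKM. Stromal matrix proteases were near 0, as Mmp2 had 0.0190, 0 and 0 FPKM and Mmp3 0.0320, 0 and 0 FPKM.

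Complement, clotting and lipid genes included products of macrophages. Of 28 genes 19 (67.9%) were expressed, against 44.5% of all genes. Lpl, lipoprotein lipase, had 516, 459.6 and 495 FPKM and Cfp, or properdin, which stabilises the alternative complement pathway, 465, 415 and 409 FPKM. The C1q chain genes were all present, C1qa at 26.2, 58.0 and 53.1 FPKM, C1qb at 76.7, 124 and 123 FPKM and C1qc at 45.6, 79.2 and 77.9 FPKM. Apolipoprotein E, Apoe, had 38.2, 85.2 and 84.2 FPKM. These 4 genes were lowest in replicate 1 by a wide margin. The clotting factor genes F7 and F10 had 95.5 ± 7.80 and 61.5 ± 1.74 FPKM and C3 had 66.5, 36.4 and 36.5 FPKM, highest in replicate 1. Apob, C6 and Proc, products of hepatocytes, were listed at 0.

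Genes of dividing cells and of cell cycle brakes were expressed side by side. All 27 proliferation genes were expressed, against 44.5% of all genes, with a median of 19.7 FPKM. Replicate 1 was the lowest library for 18 of them, and also for 21 of the 37 genes that every cell uses. The replication clamp gene Pcna had 222, 255 and 257 FPKM, the helicase subunit gene Mcm6 28.7, 32.3 and 32.3 FPKM, the topoisomerase gene Top2a 25.4, 28.2 and 29.6 FPKM and the proliferation antigen gene Mki67 13.3, 14.8 and 14.8 FPKM. Of the D-type cyclins Ccnd1 had 131, 176 and 177 FPKM, 6.84 ± 0.168 times Ccnd2, and Ccnd3 102, 88.1 and 88.0 FPKM. Of 25 brake and survival genes 24 were expressed, against 44.5% of all genes. Cdkn2a, which encodes the tumour suppressors INK4A and ARF, had 146, 154 and 153 FPKM and ranked 498. The symbol does not separate its 2 products. Cdkn1a, a target of p53, had 167, 122 and 132 FPKM, Trp53 40.4, 40.2 and 40.2 FPKM and the p53 ligase gene Mdm2 61.7, 58.5 and 60.6 FPKM, all with little spread except Cdkn1a. The survival gene Mcl1 had 169, 182 and 173 FPKM, 24.5 ± 3.03 times Bcl2, Bcl2l1 had 67.1, 71.3 and 73.3 FPKM and the death effector genes Bax and Bak1 203 ± 8.28 and 79.8 ± 5.29 FPKM.

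The spread between the libraries was small for most genes and lay mainly between replicate 1 and the others. Among the 5563 genes averaging 10 FPKM or more the median coefficient of variation (SD as a share of the mean) was 6.45%. Of these, 119 genes (2.14%) differed at least 2-fold between the highest and the lowest library, and replicate 1 was the highest for 85 and the lowest for 31 of them. Without replicate 1 the count was 4, the genes named with Fos above. The 15 genes with the largest ratios were Cpa3, Stfa3, Cxcl2, Stfa2, BC100530, Ccdc80, Saa3, Stfa1, Cd200r3, Gbp2, Spp1, Ccl22, Csf1, Socs1 and Dusp1. The acute phase gene Saa3 had 80.3, 15.1 and 13.7 FPKM and the matrix protein gene Ccdc80 25.2, 4.24 and 5.55 FPKM, both highest in replicate 1. The share of all genes with replicate 1 highest or lowest was not computed, so counts of list members by library have no such background. Among the 37 genes that every cell uses, replicate 1 was the highest for 16 and the lowest for 21.

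Stefin A genes, inhibitors of cathepsins that lie together in 1 cluster of near-identical copies, were high in replicate 1. Stfa3 had 195, 21.8 and 30.5 FPKM, Stfa2 161, 23.3 and 21.3 FPKM, BC100530 285, 40.0 and 44.9 FPKM and Stfa1 53.8, 9.33 and 9.16 FPKM. All 7 members of the cluster with a value, a list completed after values were seen, were highest in replicate 1, and they summed to 1355, 281 and 310 FPKM. How the copies share reads was not given, so the sum is safer than any 1 of them. Mast cell and basophil genes were also high in replicate 1. Cpa3, a mast cell carboxypeptidase gene, had 139, 16.9 and 14.9 FPKM, the histamine-making enzyme gene Hdc 57.2, 19.4 and 19.0 FPKM, the factor Gata2 26.0, 6.58 and 6.80 FPKM and the basophil receptor gene Cd200r3 26.1, 4.64 and 7.32 FPKM. The eosinophil major basic protein gene Prg2 had 21.0, 3.83 and 4.11 FPKM. Replicate 1 was highest for 14 of the 16 genes above 0 in the mast cell, basophil and eosinophil list, which summed to 228, 46.3 and 42.8 FPKM. The defining receptor chain gene Fcer1a was listed at 0, Ms4a2 had 0.847, 0.193 and 0.361 FPKM, Mcpt8 6.16, 3.90 and 2.81 FPKM, and the tryptase genes Tpsb2 and Tpsab1 had means of 0.0177 and 0.0176 FPKM. Whether more such cells or more transcript per cell gave these levels was not tested.

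Interferon gamma responsive genes and T cell genes were low in replicate 1. Irf1, a transcription factor induced by interferon gamma, had 29.3, 101 and 111 FPKM, the guanylate-binding protein gene Gbp2 11.8, 62.1 and 64.8 FPKM, the feedback inhibitor gene Socs1 6.52, 21.4 and 29.1 FPKM, the GTPase gene Iigp1 0.336, 10.0 and 11.9 FPKM and the chemokine gene Cxcl9 0.0850, 4.07 and 4.31 FPKM. In a list of 25 such genes chosen after these values were seen, replicate 1 was the lowest for 23. The exceptions were Nos2 and Tgtp1. The nitric oxide synthase gene Nos2 had 1.35, 0.374 and 0.362 FPKM and the GTPase gene Tgtp1 1.19, 0.00400 and 4.54 FPKM. Interferon gamma itself, Ifng, had 0, 1.04 and 1.45 FPKM. The T cell receptor complex genes Cd3d, Cd3e and Cd3g summed to 0.171, 3.42 and 3.82 FPKM, and the T cell kinase gene Lck had 0.0919, 0.792 and 0.888 FPKM and Zap70 0, 0.317 and 0.346 FPKM. The co-receptor gene Cd4 had 0.179, 1.14 and 0.626 FPKM and Cd8a 0, 0.0904 and 0.0169 FPKM, and the NK receptor gene Ncr1 had 0, 0.0414 and 0.193 FPKM. Replicate 1 was the lowest for 12 of the 16 T and NK cell genes above 0. Il7r was by far the most abundant gene of that list and did not share this order. The part of T cells in the interferon responsive genes was not tested.

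**Figure D5:**
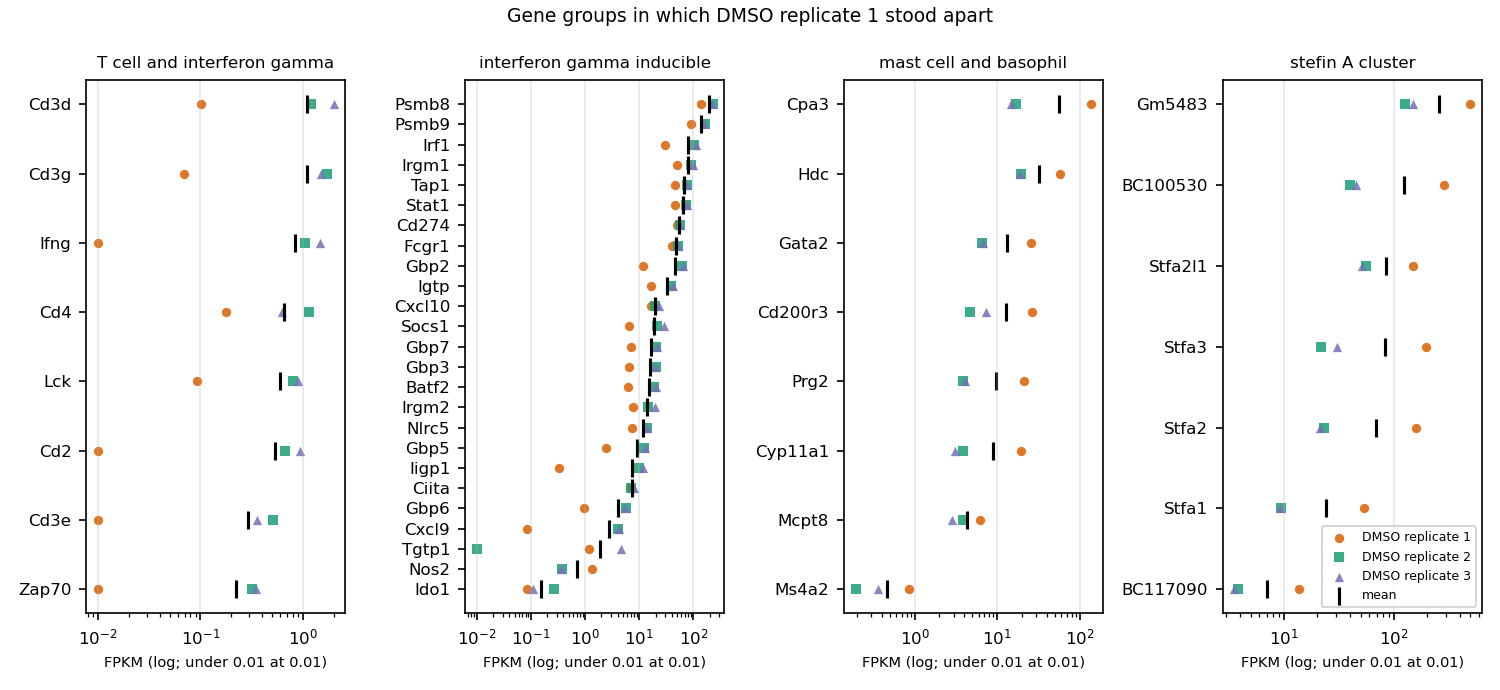
FPKM (log axes) of 4 gene groups in the 3 DMSO libraries, with 1 symbol for each library and a bar for the mean. Replicate 1 lies to the left of the other libraries for most T cell and most interferon gamma responsive genes, such as Gbp2 at 11.8 FPKM against 62.1 and 64.8, and to the right for mast cell, basophil and stefin A genes, such as Cpa3 at 139 FPKM against 16.9 and 14.9.

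Genes that every cell uses were present in each library, and none of the 37 in that list was listed at 0. Their lowest member was the TATA-binding protein gene Tbp at 11.5, 10.3 and 11.2 FPKM. Of the sex-linked genes, Xist, the RNA of the inactive X chromosome, had 1.63, 2.35 and 1.52 FPKM, and the Y-linked genes Ddx3y, Eif2s3y, Kdm5d and Uty were listed at 0 in all 3 libraries. Only 3 symbols were at 0 in 1 or 2 libraries and at 10 FPKM or more in another, and all were small nucleolar RNAs. Snora64 had 0, 362 and 339 FPKM, Snora7a 0, 94.2 and 176 FPKM and Snord22 0, 0 and 118 FPKM.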

How the data were processed

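RNA of the 3 DMSO libraries was analysed from the FPKM table deposited by the authors. Per the submitters' processing notes, the tools were TopHat2 2.0.4 and Cuffdiff with genome build mm9; its version, the annotation and how libraries were scaled are not stated there. All 12 columns of values were mapped to samples by name, and 0 were left unmapped. Means, SDs, ranks, ratios and sums were computed from the FPKM as deposited with Python 3.11.15 and pandas 2.3.3, and the scripts were tested on simulated data. No test was run, since there is 1 group. A log2 scale with a pseudocount of 1 FPKM served the Pearson correlations. Read counts were not used, so no counting error can be given.

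Members and lists were chosen with earlier results of these data known. Named by rule were the 30 most abundant genes, the 6 highest of each list, HOX genes averaging 0.1 FPKM or more and the 15 genes with the largest ratio between libraries; other list members were named for their role after values were seen, as were the interferon, stefin A, oxidase, iron, ribosomal and second mast cell lists. Older symbols were matched to the table's names (Sfpi1 is Spi1, Mll1 is Kmt2a, Hras1 is Hras, Emr1 is Adgre1); Ly6g and Ahsp are not analysed here. Sequences come from RefSeq on GRCm38.p6, and their coordinates are not those of mm9. Sets with fewer than 80% of genes matched to a promoter were left out of the motif counts. Exceptions are the monocyte, chemokine and secreted protease sets, given with their matched shares. Some list members are counted in the lists but not reported here by name.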

Additional observations from a re-analysis of the deposited data

How the results depend on the processing

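Of 169 expressed genes named by rule, median-ratio scaling moved 0 means by over 1.5 times. Its factors were 1.008, 0.991 and 1.0015 for replicates 1, 2 and 3, so it could not have moved any mean that far. Leaving out replicate 1 moved 18 of these means, replicate 2 moved 0 and replicate 3 moved 1, and the median in place of the mean moved 15. Without replicate 1 the mean of Cpa3 was 15.9 FPKM, against 56.8 FPKM over all libraries, and that of Spp1 1558 FPKM, against 3454 FPKM. Ranking by the median moved 10 of 202 ranks by over 1.5 times, with Spp1 at 21 in place of 9, Cpa3 at 3871 in place of 1304 and Csf1 at 3903 in place of 2128. Of 232 list counts, 10 moved by over 1.5 times. With a floor of 0.5 FPKM in place of 1, 5 HOX cofactors were expressed in place of 3, 9 T and NK cell genes in place of 5, 2 B cell genes in place of 1 and 2 erythroid genes in place of 0. With a floor of 2 FPKM, 2 T and NK cell genes and 0 sex-linked genes remained above it, and with 1 FPKM required in every library 2 T and NK cell genes did. Leaving out 1 library gave 3 to 5 T and NK cell genes and 1 to 2 B cell genes. The count of genes differing 2-fold between libraries, 119 in the data as deposited, was 4 without replicate 1, within a range of 4 to 111 over the libraries left out, and was 408 with a filter at a mean of 1 FPKM. The cause was not tested.

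No paired analysis was possible because the data hold 1 group and no test was made. Depth is unknown, so low values and values listed at 0 carry no counting limit. Near-identical genes, such as Lyz1 and Lyz2 or the stefin A cluster, cannot be separated with the sources used here.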

Other observations

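The ferritins and Hmox1 belong to a wider group of iron and redox genes, whose levels spanned a wide range. All 13 genes of an iron and redox list, chosen after values were seen, were expressed, where 44.5% of all genes were, and 7 had at least 100 FPKM. Of the 13 genes, 9 were highest in replicate 1, as were 16 of the 37 genes that every cell uses. The peroxiredoxin gene Prdx1 had 1476, 906 and 962 FPKM and the sulfiredoxin gene Srxn1 93.4, 35.9 and 37.6 FPKM. Both were highest in replicate 1, and replicates 2 and 3 were close. The 16 cytosolic ribosomal protein genes in a further list were lowest in replicate 1 for 13 members, with 3.22%, 3.55% and 3.54% of all FPKM in replicates 1, 2 and 3. A second list of mast cell and basophil genes, of 15 members, summed to 281, 59.5 and 57.9 FPKM.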
